A study of Mus musculus with 6 samples.

Results

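The 9 genes followed here, which encode matrix, adhesion, receptor, enzyme and transcription factor proteins, were measured across cultured mouse chondrocytes with and without Ezh2. They were Npnt, Egfl6, Col13a1, Cadm3, Epha2, Crabp1, Aoc3, Dpep1 and Ebf2, 9 of the 23358 entries of the deposited gene count table. They were chosen by name because their RNA was higher in the Ezh2-deficient than in the wildtype library on each day, so that difference is described here and not tested. All 9 passed the filter on low counts, and each had at least 1 CPM (the count scaled to library size, with scaling factors set out under processing) in the higher library on every day.

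RNA was sequenced from immature chondrocytes of the knee and hip of mice at post-natal day 5, cultured at high density as micromasses, in which they deposit matrix. The Ezh2-deficient and wildtype groups each gave 1 library at day 3, 1 at day 7 and 1 at day 14 of culture, 6 libraries in all. Both genotypes had the same medium, DMEM with 2% FBS to which ascorbic acid (0.05 mg/mL), β-glycerol phosphate (10 mM) and insulin, transferrin and selenium were added. The strain was labelled as a C57BL/6 mix for both genotypes. Library titles call the Ezh2-deficient cells cKO, a conditional knockout. What drives the deletion, which part of the gene it removes and how many animals were pooled are not given in the sources used here.

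Ezh2 is the methyltransferase of Polycomb repressive complex 2, which methylates histone H3 at lysine 27. That mark keeps many developmental genes silent in cells of other lineages, and complexes of this kind are typically found at promoters rich in CpG dinucleotides. In cartilage the complex is known to restrain genes outside the chondrocyte programme.

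Libraries held between 51985214 and 79323302 counts, and every count was even, so that 2 counts are taken as 1 fragment. The Ezh2-deficient library was the deeper on each day. Ezh2 itself had 14.7, 23.0 and 17.6 CPM at days 3, 7 and 14 in Ezh2-deficient libraries, against 24.7, 40.2 and 27.9 CPM in wildtype libraries, and since the deleted part is not known this does not check the labels. Of 12 chondrocyte markers in the table, such as Col2a1, Acan and Sox9, none was at 0 in all libraries. Together they had between 24117 and 136828 CPM in Ezh2-deficient libraries and between 39387 and 141733 CPM in wildtype libraries. In each genotype there was 1 library per day and nothing says that days came from separate cultures or animals, so p-values measure only the spread between these libraries. In bulk RNA, fewer cells of a type and less RNA per cell cannot be told apart.

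Of the genes, 7 were matched to RefSeq promoters of the GRCm38.p6 build, the 250 bases before and 50 after a start site. Npnt had 2 such promoters, so there were 8. The 250 bases before the start of 3 genes are shown here, 5′ to 3′ on the gene's strand. Of the 8 promoters, Col13a1 had the highest ratio of observed to expected CpG dinucleotides and Dpep1 the lowest, and their CpG dinucleotides are in capitals. In Cadm3 the capitals mark a match to the palindrome bound by the EBF family, to which Ebf2 belongs. The windows are chr10:61979109-61979358 (minus strand) for Col13a1, chr1:173367696-173367945 (minus strand) for Cadm3 and chr8:123185985-123186234 (plus strand) for Dpep1.
Col13a1: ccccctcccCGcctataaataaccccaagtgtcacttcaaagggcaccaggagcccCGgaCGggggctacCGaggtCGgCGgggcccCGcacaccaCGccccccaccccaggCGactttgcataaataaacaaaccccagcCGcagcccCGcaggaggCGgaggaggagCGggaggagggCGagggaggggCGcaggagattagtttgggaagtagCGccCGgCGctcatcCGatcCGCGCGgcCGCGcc
Cadm3: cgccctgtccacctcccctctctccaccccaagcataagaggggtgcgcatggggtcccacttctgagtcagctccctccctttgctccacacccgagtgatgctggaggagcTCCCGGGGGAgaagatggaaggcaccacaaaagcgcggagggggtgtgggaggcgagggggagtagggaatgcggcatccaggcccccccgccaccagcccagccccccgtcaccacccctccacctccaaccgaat
Dpep1: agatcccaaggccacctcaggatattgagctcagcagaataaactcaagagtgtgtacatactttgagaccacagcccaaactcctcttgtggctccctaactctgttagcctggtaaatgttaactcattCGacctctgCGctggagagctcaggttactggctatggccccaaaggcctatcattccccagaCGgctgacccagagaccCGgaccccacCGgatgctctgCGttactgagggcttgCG
These windows held 24 CpG dinucleotides in Col13a1 and 7 in Dpep1, in 250 bases each.

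**Figure D1:**
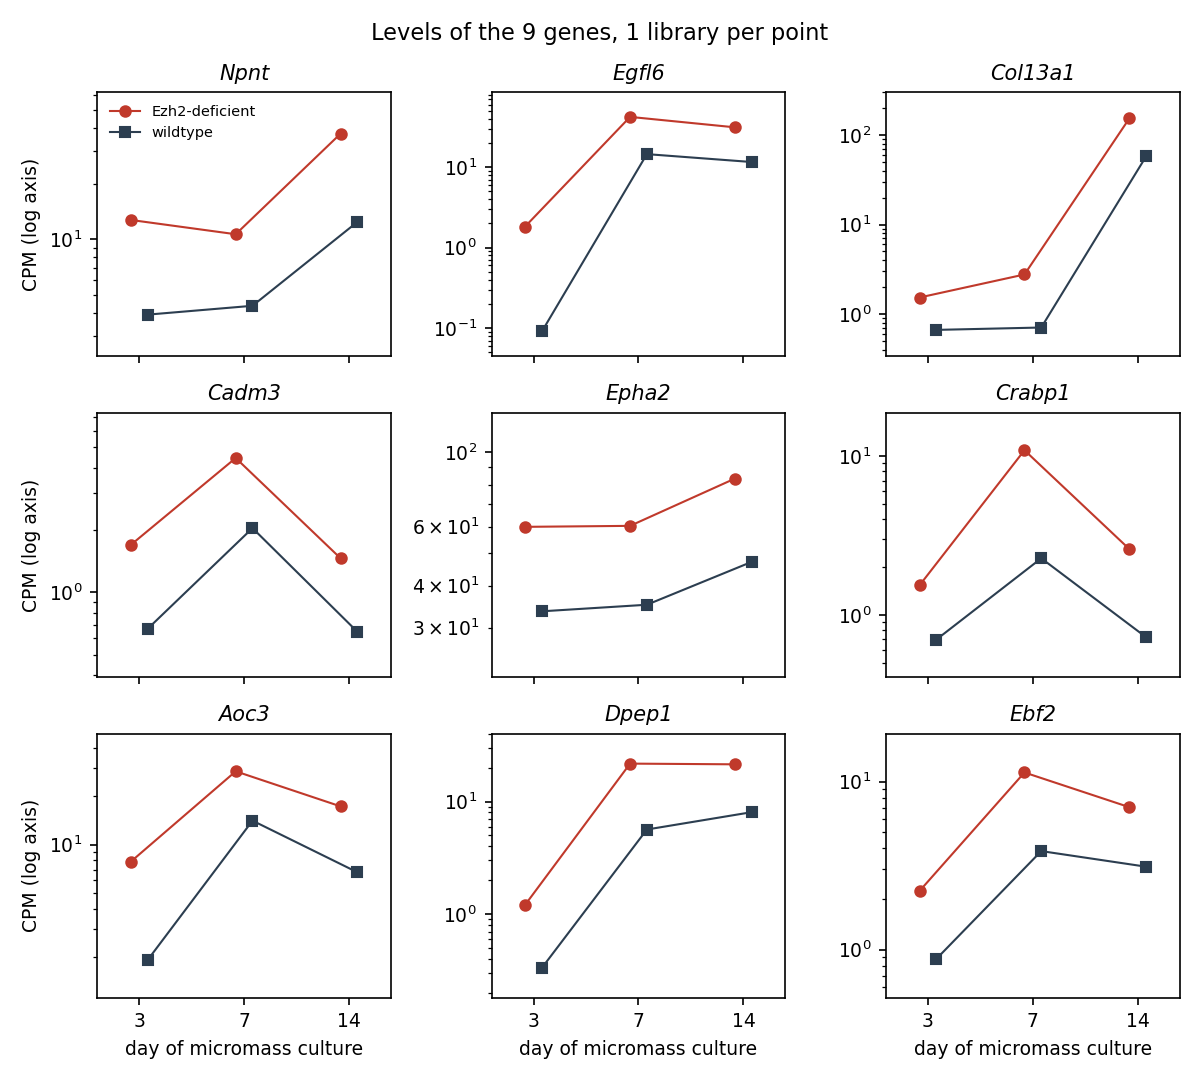
Level of each gene in CPM (log axis) by day of micromass culture (days evenly spaced), 1 point per library, with Ezh2-deficient libraries as circles and wildtype libraries as squares. The Ezh2-deficient point lies above the wildtype point of the same day in all 27 pairs, which is how the genes were chosen, while the course over days differs between genes.

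Npnt (chromosome 3, 132882696 to 132950291, minus strand, mm10) encodes nephronectin, a secreted matrix ligand of integrins with EGF-like repeats and a MAM domain. It had 12.7, 10.7 and 37.3 CPM at days 3, 7 and 14 in Ezh2-deficient libraries, against 3.91, 4.37 and 12.4 CPM in wildtype libraries. The Ezh2-deficient libraries of days 3 and 7 were on the level of the wildtype library of day 14, so the groups overlap over days. Ezh2-deficient libraries exceeded wildtype libraries by ratios of 3.25, 2.44 and 3.00 on the 3 days, a mean log2 difference of 1.52 ± 0.21 (SD over 3 days).

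Egfl6 (chromosome X, 166523007 to 166585716, minus strand) encodes a secreted protein of the same EGF and MAM type. It had 1.83, 42.2 and 31.3 CPM in Ezh2-deficient libraries, against 0.0910, 14.5 and 11.6 CPM in wildtype libraries at days 3, 7 and 14. The wildtype library of day 3 rests on 3 fragments, against 68 in the Ezh2-deficient library of that day. Its ratio at day 3 was therefore 20.1 with an exact 95% counting interval from 6.59 to 99.9, while the ratios of 2.90 at day 7 and 2.70 at day 14 had intervals from 2.63 to 3.21 and from 2.37 to 3.09. The mean log2 difference was 2.43 ± 1.64 (SD, n = 3 days), the widest spread of the 9 genes. Egfl6 lies on the X chromosome, and sex-linked transcripts moved with genotype. Xist, the RNA that coats the inactive X in female cells, had 842, 677 and 513 CPM in Ezh2-deficient libraries, against 1065, 1130 and 1223 CPM in wildtype libraries. The 4 Y-linked genes looked at together had 122, 131 and 171 CPM in Ezh2-deficient libraries, against 90.8, 62.5 and 60.6 CPM in wildtype libraries. The part of sex in any of the differences was not tested.

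Among cell surface proteins, Col13a1 (chromosome 10, 61838498 to 61979108, minus strand) encodes a collagen that spans the cell membrane. It had 1.53, 2.77 and 153 CPM in Ezh2-deficient libraries, against 0.667, 0.709 and 57.7 CPM in wildtype libraries. The day 14 libraries of both genotypes stood far above the others. Its ratios were 2.30, 3.91 and 2.65 at days 3, 7 and 14 (mean log2 difference 1.52 ± 0.40, SD, n = 3 days), and at day 14 the counting interval was narrow, from 2.50 to 2.81.

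Cadm3 (chromosome 1, 173334254 to 173367695, minus strand) encodes an immunoglobulin-type adhesion molecule best known from neurons. Its levels were low, with 1.70, 4.45 and 1.46 CPM in Ezh2-deficient libraries, against 0.667, 2.04 and 0.646 CPM in wildtype libraries. The fewest fragments in a library were 40 at day 14 in the Ezh2-deficient group and 17 at day 14 in the wildtype group. The ratios were 2.54, 2.18 and 2.26, with a lower counting bound of 1.25 at day 14. In the GENCODE M21 annotation Cadm3 overlaps Aim2 on the opposite strand, and the strand setting of the counting was not given, so reads of both genes could not be told apart there. In the deposited table Aim2 begins 52.9 kb away, and the annotation behind the counts is not known. Aim2 had 0.861, 3.38 and 5.91 CPM in Ezh2-deficient libraries, against 0.546, 3.94 and 5.24 CPM in wildtype libraries.

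Epha2 (chromosome 4, 141301221 to 141329384, plus strand) encodes a receptor tyrosine kinase that binds ephrin-A ligands on neighbouring cells. It had 59.9, 60.3 and 83.4 CPM in Ezh2-deficient libraries, against 33.6, 35.1 and 47.1 CPM in wildtype libraries. Its 3 Ezh2-deficient libraries all lay above its 3 wildtype libraries, which held for no other of the 9 genes and for 351 of the 16280 genes tested, or 2.16%. The ratios of 1.79, 1.72 and 1.77 were the smallest of the 9 genes on each day and had the least spread between days, with a mean log2 difference of 0.81 ± 0.03 (SD, n = 3 days).

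Crabp1 (chromosome 9, 54764808 to 54773109, plus strand) encodes a cytosolic protein that binds retinoic acid. It had 1.53, 10.9 and 2.59 CPM in Ezh2-deficient libraries, against 0.698, 2.27 and 0.722 CPM in wildtype libraries. The Ezh2-deficient library of day 7 stood apart with 428 fragments, against 80 in the wildtype library of that day. Crabp1 ratios were 2.20, 4.79 and 3.59 at days 3, 7 and 14, so that the difference was largest where the gene was highest.

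Aoc3 (chromosome 11, 101330606 to 101339430, plus strand) encodes an amine oxidase also called vascular adhesion protein, found on endothelium, smooth muscle and fat cells. Its levels were 7.83, 28.6 and 17.3 CPM in Ezh2-deficient libraries and 1.91, 14.1 and 6.72 CPM in wildtype libraries. Day 7 was the highest day in both genotypes but had the smallest ratio, 2.03, against 4.1 at day 3 and 2.57 at day 14. Dpep1 (chromosome 8, 123186235 to 123201813, plus strand) encodes a membrane dipeptidase that also cleaves leukotriene D4. It had 1.21, 21.7 and 21.4 CPM in Ezh2-deficient libraries, against 0.334, 5.65 and 8.05 CPM in wildtype libraries. The groups overlap over days, since the Ezh2-deficient library of day 3 lay below the wildtype libraries of days 7 and 14. The ratios of Dpep1 were 3.63, 3.85 and 2.66. The annotation places a further coding gene, Gm20388, over Dpep1 on the same strand, and reads of both could have been shared.

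Ebf2 (chromosome 14, 67233292 to 67429767, plus strand) encodes a transcription factor of mesenchymal progenitors, known in the mouse from brown fat precursors and bone. It had 2.23, 11.3 and 7.04 CPM in Ezh2-deficient libraries, against 0.880, 3.86 and 3.12 CPM in wildtype libraries. Its course over days had the same shape in both genotypes, lowest at day 3 and highest at day 7. The ratios were 2.54, 2.94 and 2.26. On the opposite strand 5 annotated genes overlap Ebf2, all of them non-coding.

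**Figure D2:**
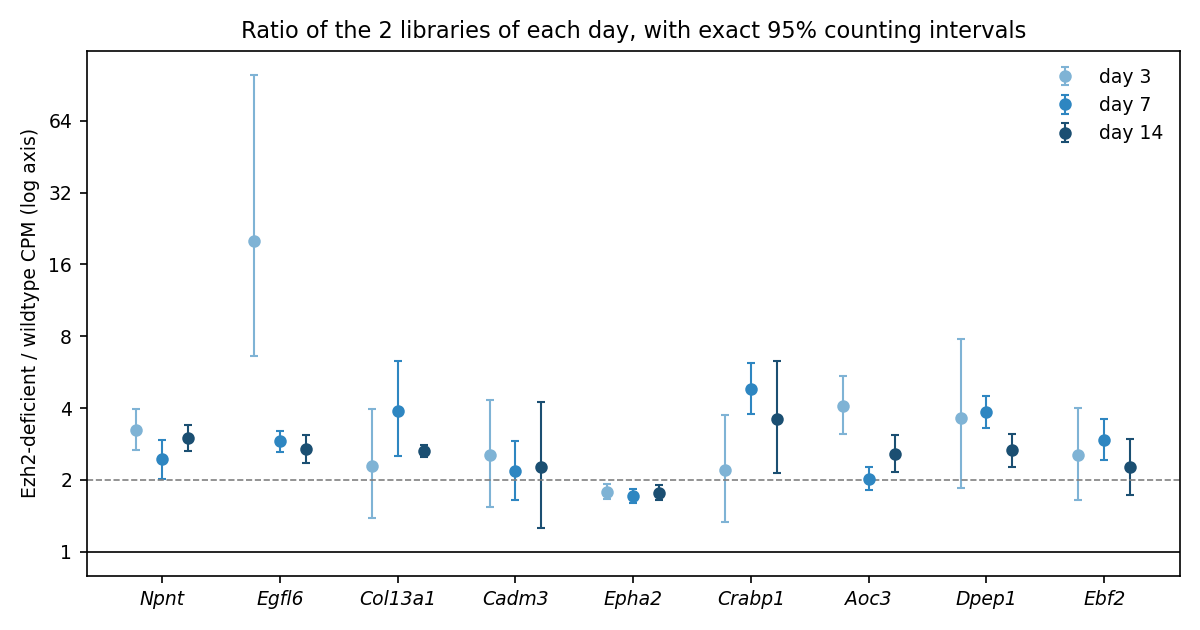
Ratio of Ezh2-deficient to wildtype CPM (log axis) for each gene at days 3, 7 and 14, 1 library per genotype and day, with exact 95% counting intervals as bars. Solid and dashed lines mark ratios of 1 and 2, and Epha2 lies below the dashed line on all days while Egfl6 at day 3 has the widest interval, from 6.59 to 99.9.

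Read against the whole table, 8 of the 9 genes were at least 2-fold higher in the Ezh2-deficient library at day 3, 8 at day 7 and 8 at day 14, with Epha2 the exception each time. This call asked for at least 1 CPM in the higher library, a 2-fold ratio and a counting interval that excluded 1. By the same rule 1.54% of 16280 genes were called higher and 0.485% lower at day 3, 2.11% higher and 1.45% lower at day 7, and 2.16% higher and 2.84% lower at day 14. On all 3 days 23 genes were called, or 0.141%, among them the same 8. A ratio above 1 on all 3 days was found for all 9 genes and for 18% of genes tested, and a ratio above the lowest of the 9 genes on all 3 days for 1.11%. Since the genes were picked by these ratios, nothing is read from these counts. The median over the 9 genes of the mean log2 difference was 1.52, against -0.00 over all genes with a value. The largest ratio fell at day 3 for 5 genes, at day 7 for 4 and at day 14 for 0 genes.

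Levels can be compared between genes only per length, for which the deposited RPKM values were taken. At day 3 Epha2 was the highest of the 9 in both genotypes, with 11.6 RPKM in the Ezh2-deficient library and 6.61 RPKM in the wildtype library. At day 7 Egfl6 with 13.7 RPKM, Epha2 with 13.5 RPKM and Crabp1 with 12.9 RPKM stood close together in the Ezh2-deficient library. In the wildtype library of day 7 Epha2 led with 7.77 RPKM, ahead of Egfl6 with 4.69 RPKM and Aoc3 with 2.79 RPKM. At day 14 Col13a1 came first, with 40.4 RPKM in the Ezh2-deficient library and 16.3 RPKM in the wildtype library, and Epha2 second with 16.3 and 9.79 RPKM. Cadm3 was lowest at day 14 in both genotypes, with 0.269 RPKM in the Ezh2-deficient library and 0.127 RPKM in the wildtype library. With 1 library for each of these values, no neighbours in these orders can be tested against a spread between replicates.

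The change between days was not used in choosing the genes, and it was tested in edgeR's quasi-likelihood fit across all genes with genotype as a covariate, so that the genotypes stand in for replicates. From day 3 to day 7 6 of the 9 genes rose and 0 fell, while 3 did not pass. Over all genes 36.1% passed in this comparison, 19.5% higher and 16.6% lower. The median log2 difference of the 9 genes was 2.24, against -0.02 over all genes. With total counts in place of TMM factors the median of all genes moved to 0.19, and the split of all calls went to 77.5% higher, against 53.9% in the main fit.

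The steepest rise by day 7 was that of Egfl6. It rose by 5.14 ± 0.55 on the log2 scale (SE; edgeR adjusted p = 0.00228), 23.1-fold in Ezh2-deficient cells, while wildtype cells had 512 fragments at day 7 and 3 at day 3. That log2 difference was 7.32 without the Ezh2-deficient library of day 3 and 4.50 without the wildtype library of day 3. Dpep1 rose by 4.1 ± 0.22 (adjusted p = 0.000423 in edgeR), with 18.0-fold in Ezh2-deficient and 16.9-fold in wildtype cells. Aoc3 (2.34 ± 0.26, adjusted p = 0.00256), Crabp1 (2.31 ± 0.33, adjusted p = 0.0054), Ebf2 (2.24 ± 0.20, adjusted p = 0.00142) and Cadm3 (1.49 ± 0.25, adjusted p = 0.00879) also rose in edgeR. Col13a1 (0.58, adjusted p = 0.0756), Epha2 (0.04, adjusted p = 0.743) and Npnt (-0.06, adjusted p = 0.794) did not pass in edgeR. Without the Ezh2-deficient library of day 7 Cadm3 and Crabp1 no longer passed (adjusted p = 0.094 and 0.0674 in edgeR), nor did Cadm3 without the wildtype library of day 7 (adjusted p = 0.0894). Col13a1 passed with total counts only (adjusted p = 0.0408 in edgeR) and without the wildtype library of day 3 (adjusted p = 0.0377). Across all 14 alternatives, the lowest and highest adjusted p were 0.000136 and 0.094 for Cadm3, 2.98e-08 and 0.0674 for Crabp1, and 0.0377 and 0.617 for Col13a1.

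**Figure D3:**
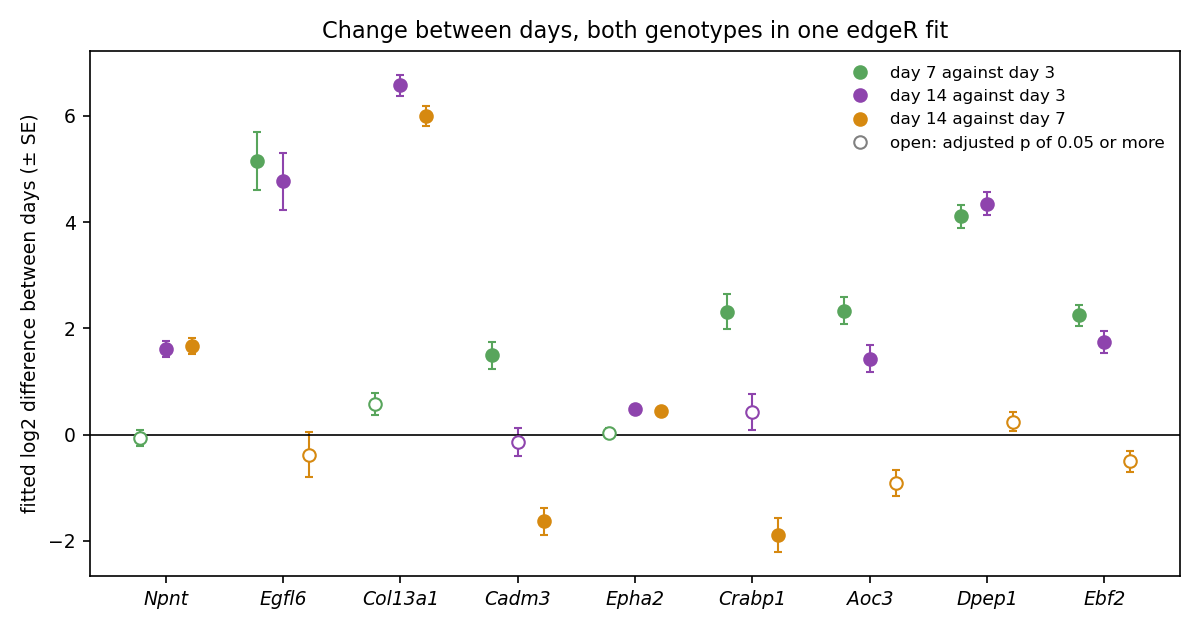
Fitted log2 difference between days with its SE for each gene, from the edgeR fit to all 6 libraries. Filled points passed an adjusted p of 0.05 and open points did not. Egfl6 and Dpep1 rose most by day 7, Col13a1 rose between days 7 and 14, and Cadm3 and Crabp1 rose and then fell.

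From day 7 to day 14 the 9 genes parted. In edgeR 3 rose, 2 fell and 4 did not pass, where 5.66% of all genes passed, 3.38% higher and 2.29% lower. Col13a1 rose by 6.00 ± 0.19 on the log2 scale (adjusted p = 0.00108 in edgeR), 55.2-fold in Ezh2-deficient cells and 81.4-fold in wildtype cells, and it passed in all 14 alternatives. Npnt rose by 1.66 ± 0.15 (adjusted p = 0.00903) and Epha2 by 0.45 ± 0.08 (adjusted p = 0.0386) in edgeR. Crabp1 fell by 1.88 ± 0.32 (adjusted p = 0.0349) and Cadm3 fell by 1.63 ± 0.26 (adjusted p = 0.0283) in edgeR. Aoc3 (-0.91), Ebf2 (-0.51), Egfl6 (-0.38) and Dpep1 (0.24) did not pass in edgeR, with an adjusted p of 0.102, 0.195, 0.648 and 0.467. The split of calls over all genes was 59.7% higher, against 44.3% with total counts only, where the median of all genes moved from -0.01 to -0.16 and Epha2 no longer passed (adjusted p = 0.101).

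The calls for Npnt, Cadm3, Epha2 and Crabp1 between days 7 and 14 were not kept in every fit without 1 library of these days. Such a fit has 1 library for that day and 1 residual degree of freedom, so a lost call does not single out that library. With any 1 library left out, the log2 difference was 1.48 to 1.85 for Npnt and -1.706 to -1.555 for Cadm3. It was 0.42 to 0.48 for Epha2 and -2.21 to -1.45 for Crabp1. Without the Ezh2-deficient or the wildtype library of day 7, or the Ezh2-deficient library of day 14, 1 of the 9 genes passed, namely Col13a1. Without the wildtype library of day 14 2 genes passed, the second being Npnt. Cadm3 then had an adjusted p of 0.269, 0.209, 0.188 and 0.0882 in edgeR, Crabp1 0.396, 0.0984, 0.222 and 0.104, and Epha2 0.408, 0.259, 0.194 and 0.0964. Npnt had 0.106, 0.0549 and 0.0715 without the first 3 of these libraries. Aoc3 passed in DESeq2 (adjusted p = 0.0127) and, in edgeR, without the Ezh2-deficient or the wildtype library of day 3 (adjusted p = 0.00497 and 0.00475). Its range over the 14 alternatives was 0.00475 to 0.545. The ranges were 0.000172 to 0.269 for Cadm3, 3.35e-05 to 0.396 for Crabp1, 0.00573 to 0.408 for Epha2 and 2.69e-15 to 0.106 for Npnt.

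Between day 3 and day 14, 7 of the 9 genes rose in edgeR and 0 fell, and the same number passed in each of the 14 alternatives. Over all genes 45.5% passed, 23.2% higher and 22.4% lower. Col13a1 rose most, by 6.57 ± 0.20 on the log2 scale (adjusted p = 0.000131 in edgeR), 99.7-fold in Ezh2-deficient cells and 86.5-fold in wildtype cells. Egfl6 rose by 4.77 ± 0.54 (adjusted p = 0.00175; 6.93 and 4.12 without the Ezh2-deficient or the wildtype library of day 3) and Dpep1 by 4.35 ± 0.22 (adjusted p = 0.000185) in edgeR. Ebf2 (1.74), Npnt (1.60), Aoc3 (1.43) and Epha2 (0.48) rose as well. Crabp1 (0.43, adjusted p = 0.348) and Cadm3 (-0.14, adjusted p = 0.688), which were highest at day 7, did not pass in edgeR. In Ezh2-deficient cells 6 of the 9 genes were highest at day 7 and 3 at day 14, and in wildtype cells 5 were highest at day 7 and 4 at day 14, with Dpep1 the gene that differed. Whether the courses differ between genotypes was not tested.

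Across the 6 libraries some of the genes moved closely together. Of the 36 pairs, 7 had a Pearson correlation of log2 CPM above 0.9 and 2 were below 0. The points share libraries and the genes share the direction by which they were chosen, so this is a description over 6 points. The closest pairs were Egfl6 with Dpep1 (0.98), Aoc3 with Ebf2 (0.97), Cadm3 with Crabp1 (0.96) and Npnt with Epha2 (0.95). Col13a1 was least like Cadm3 (-0.23). Likeness to the average course of the 9 was read among 12159 other genes with a mean of at least 1 CPM. Symbols in some of the forms used for predicted or uncharacterised genes, such as Gm and Rik names, were left out, a filter that kept E330013P06. Those most alike were Rasl11a (0.993), Ttpal (0.991), Dusp10 (0.990), Lmod1 (0.988), Fgfr2 (0.988), Mtx2 (0.985), Nrgn (0.982) and E330013P06 (0.981). Dusp10, a phosphatase of stress kinases, had 2.80, 5.08 and 5.95 CPM in Ezh2-deficient libraries, against 1.70, 3.06 and 3.12 CPM in wildtype libraries. Fgfr2, a fibroblast growth factor receptor, had 257, 311 and 308 CPM in Ezh2-deficient libraries, against 195, 246 and 264 CPM in wildtype libraries.

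Genes of the same families and pathways were then read in the genotype comparison, fitted in edgeR with day as a covariate. Over all 16280 genes 0.0123% passed there, 0 higher and 2 lower. DESeq2 called 2.29% higher and 1.44% lower, and limma-voom 0.19% higher and 0.0553% lower. Before adjustment 13.2% of all genes had p under 0.05 in edgeR, 6.82% higher and 6.33% lower, against which the unadjusted counts below are to be read. None of the genes in the 7 family lists passed in edgeR with all libraries, so values below are given without a call. Fits without a day's pair were read only for the list genes named by the rule under processing, not for the rest of each list. The genes named, 2 per list, had the largest differences in this same comparison at a mean of at least 1 CPM. The share of them that passed is therefore not read against all genes. Without the day 3 pair, where edgeR called 863 genes in all, 6 of those named passed. They were Ebf3 (adjusted p = 0.00725), Itga11 (0.0122), Aldh1a3 (0.0172), Epha7 (0.0289), Anpep (0.0441) and Col15a1 (0.0464). None of these 6 passed without the day 7 or the day 14 pair, but edgeR called 0 of all genes in both fits. Nothing about these 6 in particular is read from that.

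Of 27 tested integrins and other matrix genes of the nephronectin type, 0 passed in edgeR, 5 were higher at an unadjusted p under 0.05 and 0 lower, DESeq2 called 3 higher and limma-voom 1. The list's median log2 difference was 0.03. Itga11, a collagen-binding integrin subunit, had 23.7, 58.4 and 101 CPM in Ezh2-deficient libraries, against 10.7, 27.3 and 59.7 CPM in wildtype libraries. It did not pass in edgeR (1.00 ± 0.10, adjusted p = 0.0674) but did in DESeq2 (adjusted p = 2.07e-10) and limma-voom (adjusted p = 0.0466). Frem1, a basement membrane protein, was at 1.01 ± 0.19 (log2; adjusted p = 0.156 in edgeR). Itga8, the integrin subunit that pairs with Itgb1 to bind nephronectin, was chosen for that role after its values were seen. It had 4.49, 10.4 and 11.9 CPM in Ezh2-deficient libraries, against 3.70, 11.5 and 9.46 CPM in wildtype libraries (0.16 on the log2 scale, adjusted p = 0.688 in edgeR).

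Of 21 transmembrane and basement membrane collagens and laminins tested beside Col13a1, 0 passed in edgeR, with 2 higher at an unadjusted p under 0.05 and 0 called by DESeq2 or limma-voom. The median was 0.08. Col15a1 had 119, 67.2 and 77.7 CPM in Ezh2-deficient libraries, against 132, 41.1 and 18.7 CPM in wildtype libraries (0.85 ± 0.40, adjusted p = 0.44 in edgeR), so that its direction at day 3 was the other way. Its log2 difference was 1.37 with day 3 left out and 0.28 with day 14 left out. Lama1, a laminin chain, was at 0.54 ± 0.26 (adjusted p = 0.444 in edgeR), and at 0.17 without the day 7 pair and 0.34 in limma-voom.

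Among 16 tested nectins, Cadm genes and other immunoglobulin-type adhesion molecules 0 passed in edgeR. At an unadjusted p under 0.05 0 were higher and 2 lower, DESeq2 called 1 lower and limma-voom 0. The 2 with the largest difference were both below wildtype, Chl1 (-0.52 ± 0.15, adjusted p = 0.274 in edgeR) and Pvr (-0.49 ± 0.09, adjusted p = 0.139 in edgeR).

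Of 20 Eph receptors and ephrins tested beside Epha2, 0 passed in edgeR, with 3 above and 1 below wildtype at an unadjusted p under 0.05, 2 called higher by DESeq2 and 0 by limma-voom. Epha7 had 14.2, 15.1 and 8.90 CPM in Ezh2-deficient libraries, against 3.09, 6.50 and 5.28 CPM in wildtype libraries (1.38 ± 0.28, adjusted p = 0.174 in edgeR). Epha3 had 7.26, 40.4 and 57.2 CPM in Ezh2-deficient libraries, against 3.09, 14.0 and 39.9 CPM in wildtype libraries (1.08 ± 0.20, adjusted p = 0.15 in edgeR). Both receptors, like Epha2, bind ephrin-A ligands. Their adjusted p in DESeq2 was 0.000175 for Epha7 and 8.03e-05 for Epha3, and the list's median was 0.08.

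The 20 tested genes of retinoid handling had a median of 0.11, with 0 called in edgeR, 1 higher and 1 lower in DESeq2 and 0 in limma-voom. Unadjusted, 5 of them were higher and 1 lower at p under 0.05. Aldh1a3, which makes retinoic acid, had 2.02, 6.69 and 56.1 CPM in Ezh2-deficient libraries, against 1.82, 3.23 and 33.7 CPM in wildtype libraries (0.68 ± 0.18, adjusted p = 0.251 in edgeR). Rarb, a retinoic acid receptor and textbook target of retinoic acid, was chosen for that role after its values were seen. It had 0.377, 0.458 and 0.511 CPM in Ezh2-deficient libraries, against 0.364, 0.567 and 0.798 CPM in wildtype libraries (-0.31, adjusted p = 0.736 in edgeR). All of these values were under 1 CPM, the mean asked of genes named by rule. The response of the cells to retinoic acid was not tested.

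The EBF family and early fat cell factors had the highest median of the 7 family lists, 0.49 over 15 tested genes. In edgeR 0 passed, DESeq2 called 4 higher and limma-voom 0. Unadjusted, 6 were higher and 0 lower at p under 0.05. Ebf3 had 6.75, 21.0 and 13.8 CPM in Ezh2-deficient libraries, against 5.22, 8.48 and 4.94 CPM in wildtype libraries (1.06 ± 0.24, adjusted p = 0.196 in edgeR). Pparg, the main transcription factor of fat cells, was at 0.78 ± 0.29 (adjusted p = 0.356 in edgeR), and at 0.43 with day 3 left out and 1.17 with day 14 left out. Ebf1, chosen as a family member after its values were seen, had 13.5, 45.3 and 22.2 CPM in Ezh2-deficient libraries, against 8.83, 27.5 and 18.0 CPM in wildtype libraries (0.55 ± 0.11, adjusted p = 0.169 in edgeR). These 3 genes were highest at day 7 in both genotypes, as Ebf2 was.

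Of 16 amine oxidases, dipeptidases and leukotriene genes tested beside Aoc3 and Dpep1, 0 passed in edgeR, DESeq2 called 1 higher and limma-voom 0. Unadjusted, 1 was higher and 1 lower at p under 0.05. The median was -0.00. Anpep, an aminopeptidase of the cell surface, was at -0.37 ± 0.09 (adjusted p = 0.221 in edgeR), and Ggt5, which makes leukotriene D4, at 0.33 ± 0.35 (adjusted p = 0.719 in edgeR) with the opposite sign without the day 7 pair (-0.19).

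The nearest genes on either side of the 9, among those with a mean of at least 1 CPM, were read in the same comparison. They were Tbck and Gstcd for Npnt, Tceanc and Tmsb4x for Egfl6, H2afy2 and 2010107G23Rik for Col13a1, Dusp23 and Aim2 for Cadm3, and Arhgef19 and Hspb7 for Epha2. The others were Wdr61 and Ireb2 for Crabp1, Aoc2 and Aarsd1 for Aoc3, Sult5a1 and Chmp1a for Dpep1, and Ppp2r2a and Cdca2 for Ebf2. Some lay far off, with Dusp23 701 kb from Cadm3, Tmsb4x 621 kb from Egfl6 and Cdca2 247 kb from Ebf2. In edgeR 0 of these 18 passed, and DESeq2 and limma-voom called 0. Unadjusted, 0 were above and 1 below wildtype at p under 0.05. Their median log2 difference was 0.04, between -0.63 for Cdca2, a cell cycle gene, and 0.32 for Sult5a1. When a day's pair was left out Cdca2 lay between -1.09 and -0.29, passing in edgeR without day 3 (adjusted p = 0.0125), and Sult5a1 between 0.04 and 0.66. Aoc2, a second amine oxidase that ends 912 bases before the start of Aoc3, had 2.56, 2.03 and 2.26 CPM in Ezh2-deficient libraries, against 2.49, 1.53 and 2.24 CPM in wildtype libraries (0.15 ± 0.20, adjusted p = 0.788 in edgeR). Chmp1a, 2448 bases from Dpep1, was at -0.03 (adjusted p = 0.893 in edgeR).

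**Figure D4:**
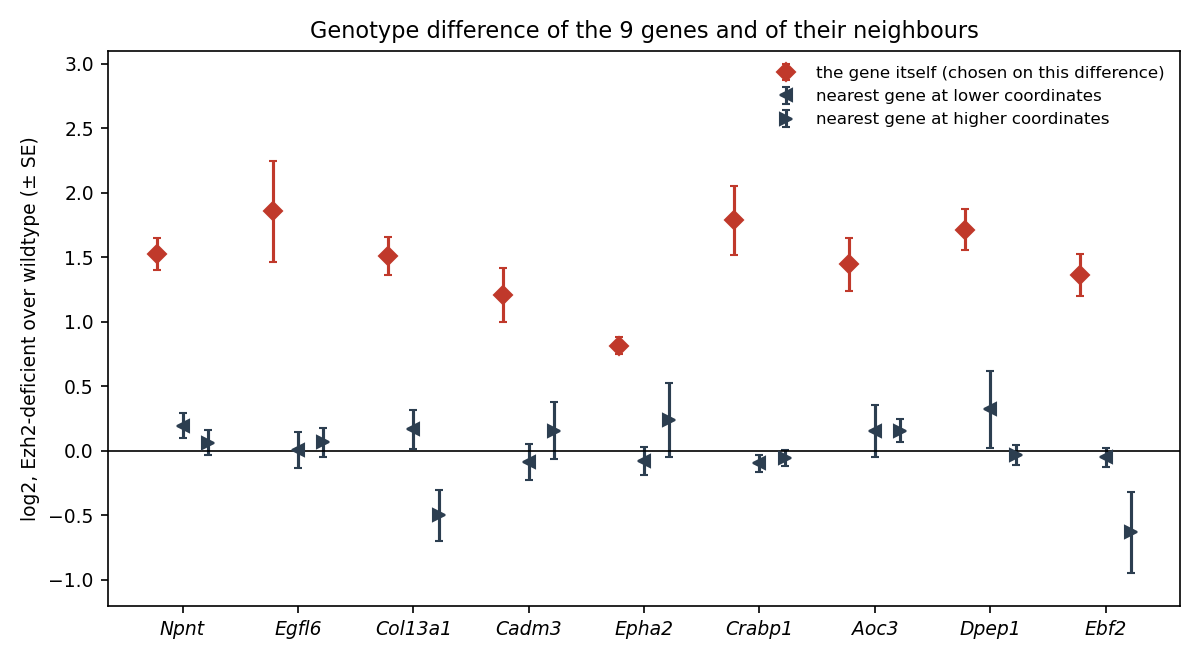
Log2 difference of Ezh2-deficient over wildtype libraries with its SE from the edgeR fit, for each of the 9 genes (diamonds) and for its nearest gene at lower and at higher coordinates (triangles). The 9 were chosen on this difference, and the 18 nearest genes, from 912 bases to 701 kb away, lie between -0.63 and 0.32.

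Markers of other cell types were read in the same comparison, and 0 of them passed in edgeR. DESeq2 called 7 bone, 6 fat, 4 smooth muscle and pericyte, 3 fibroblast, 1 macrophage and 1 keratinocyte marker higher, and 1 neural or glial marker lower. In limma-voom 3 bone markers and 1 smooth muscle and pericyte marker were higher. The shares over all genes were 2.29% higher and 1.44% lower in DESeq2 and 0.19% higher in limma-voom. Over all genes, 18% were higher and 18.3% lower in the Ezh2-deficient library on all 3 days. For fat cells, where Aoc3 and Ebf2 are known to be expressed, 9 of 10 markers were higher in the Ezh2-deficient library on all 3 days and 0 lower. Together they had between 243 and 1011 CPM in Ezh2-deficient libraries and between 113 and 650 CPM in wildtype libraries, none at 0. For bone cells 10 of 11 were higher on all 3 days, with sums between 1934 and 99839 CPM in Ezh2-deficient libraries and between 1384 and 50328 CPM in wildtype libraries. Of 11 smooth muscle and pericyte markers 5 were higher on all 3 days and 1 lower, with sums of 752 to 1102 CPM in Ezh2-deficient libraries and 648 to 1464 CPM in wildtype libraries. Cspg4 was the largest part of this sum in every library. At day 3 it had 902 CPM in the Ezh2-deficient library and 1379 CPM in the wildtype library. It was below wildtype at days 3 and 7 and above it at day 14, so the sums do not show the course of the 5 higher markers. Of 12 fibroblast markers 4 were higher and 2 lower, with sums of 3782 to 62857 CPM and 2786 to 38878 CPM in Ezh2-deficient and wildtype libraries. Single genes also made up much of the other sums. At day 14 Col1a2, a fibroblast marker here, had 52323 CPM in the Ezh2-deficient and 26765 CPM in the wildtype library. In the same libraries Col1a1, a bone marker here, had 62979 and 34581 CPM. Lpl, a fat cell marker here, had 587 and 421 CPM at day 7. None of these markers was at 0 in all libraries, and the part of any of these cell types in the levels of the 9 genes was not tested.

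Markers of endothelium, another known site of Aoc3, were low. Their sum over 10 genes was 6.86 to 11.8 CPM in Ezh2-deficient libraries and 8.07 to 13.2 CPM in wildtype libraries, with Emcn and Cldn5 under 0.1 CPM in every library. Egfl7 reached 4.47 CPM in the Ezh2-deficient library of day 7 and Kdr 4.37 CPM in the wildtype library of day 14. Of the 8 tested, 2 were higher on all 3 days and 3 lower. Of 12 chondrocyte markers 0 were higher on all 3 days and 9 lower, and 0 passed in edgeR, while DESeq2 called 3 lower and limma-voom 0. Neural and glial markers, which matter for Cadm3, summed to 43.4 to 349 CPM in Ezh2-deficient libraries and 108 to 387 CPM in wildtype libraries, most of it S100b, which chondrocytes also express. Of the 7 tested, 1 was higher on all 3 days and 1 lower, and Nefl was under 0.1 CPM in every library. Keratinocyte markers summed to 10.1 to 20.1 CPM in Ezh2-deficient libraries and 8.92 to 17.4 CPM in wildtype libraries, skeletal muscle markers to 5.51 to 16.2 CPM and 7.26 to 11.5 CPM, and macrophage markers to 110 to 2893 CPM and 149 to 2072 CPM. Their part in the levels of the 9 genes was not tested.

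The median GC content over the 8 promoters was 66.0%, against 52.7% over all 32851 promoters in the table, with Epha2 (54.7%) and Dpep1 (52.7%) near the value of all promoters. The ratio of observed to expected CpG dinucleotides in the 300 bases was 0.84 for Col13a1, 0.76 and 0.74 for the 2 promoters of Npnt, 0.54 for Crabp1, 0.54 for Egfl6 and 0.52 for Cadm3. It was lowest for Epha2 (0.46) and Dpep1 (0.44). The median ratio was 0.54, against 0.38 over all promoters. At or above a ratio of 0.6 were 3 of the 8 promoters, those of Col13a1 and Npnt, against 35.8% of all promoters.

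**Figure D5:**
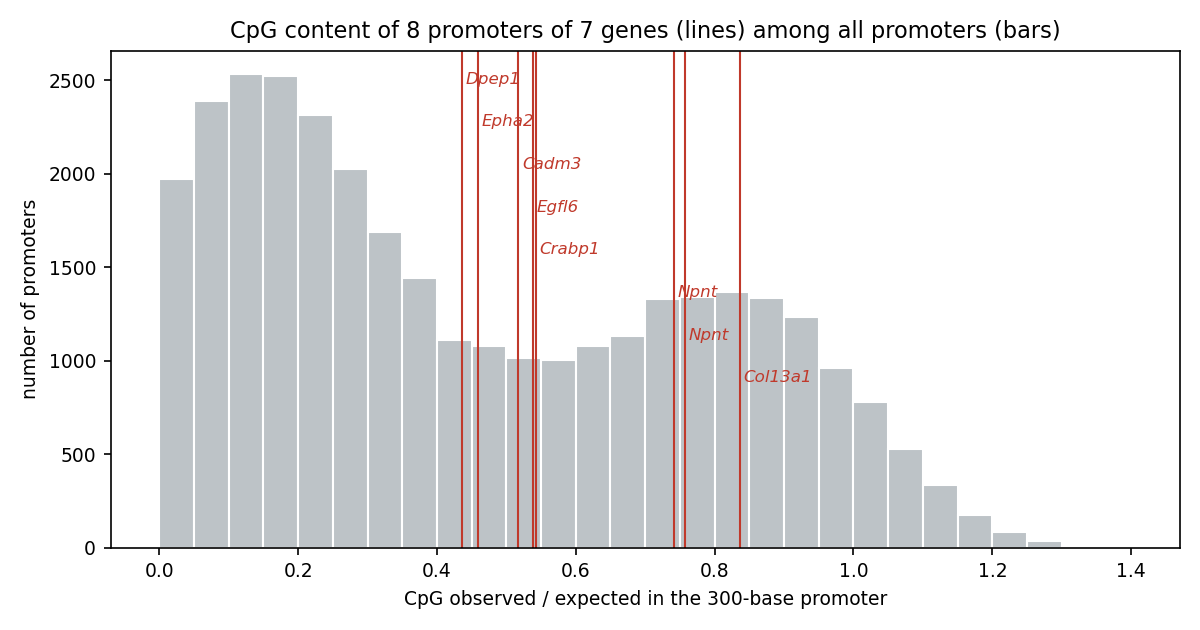
Number of RefSeq promoters (bars) by ratio of observed to expected CpG in the 300-base window, with the 8 promoters of 7 of the genes as lines. Those of Col13a1 and Npnt fall in the upper hump of all promoters, and the other 5 lie between 0.44 and 0.54.

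The search for 5 motifs covered both strands of the 300 bases. GGGCGG, the GC box bound by Sp factors, was in 4 of the 8 promoters and in 35.7% of all, with 5 matches in Crabp1, 4 in 1 promoter of Npnt and 1 each in Egfl6 and Epha2. AGGTCA, a nuclear receptor half-site, was in 2 promoters, those of Npnt and Epha2, and in 16.3% of all. TATAAA was in 1, Col13a1, starting 237 bases before its start site, and in 13.6% of all. TGANTCA, the AP-1 element, was in 1, Cadm3, and in 7.81% of all. The EBF palindrome, TCCC and GGGA with 2 free bases between them, was in 1, again Cadm3, starting 137 bases before the start site as TCCCGGGGGA (in capitals in the sequence above), and in 0.904% of all. The AP-1 element of Cadm3 started 186 bases before the start site, so the matches there did not overlap. A match describes letters of the genome and was not tested for binding.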

How the data were processed

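RNA-seq gene counts of 6 libraries were analysed. Per the file headers, the deposited table gives a count and an RPKM value per gene and library. The counts were whole and even in every library, which is taken as 2 counts per fragment. The authors' RPKM values equal count divided by coding length and by a library total of which the table's counts made up 80.2% to 82.8%. The submitters' processing notes list CASAVA 1.9, TopHat, HTSeq and mm10 without saying what each was used for. Strand setting and gene annotation of the counting are not given in the sources used here. Coordinates of genes are those of the deposited table, their strands and overlaps those of GENCODE M21 (mm10). Columns were matched to libraries by title.

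Genes were kept by filterByExpr (minimum count 10, day as group), which left 16280. CPM used TMM factors. Tests were edgeR 4.0.16 quasi-likelihood F tests, two-sided, in R 4.3.3, with day and genotype as factors (2 residual degrees of freedom), Benjamini-Hochberg adjustment over all genes kept and a threshold of 0.05. The SE of a log2 difference is its size divided by the square root of F. Fits were checked on simulated counts. Within a day there was 1 library per genotype and no test. Ratios have exact 95% intervals on fragments, which cover counting error only, as no molecular identifiers were counted and reads may be copies of 1 molecule. A floor of 3 fragments was 0.0763 to 0.114 CPM. Correlations used log2 of CPM plus 0.1.

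Alternatives were RLE factors, total counts, no filter, a minimum count of 50, DESeq2 1.42.0, limma-voom (limma 3.58.1), robust dispersion and leaving out libraries. Halving the counts was added after seeing the data. The members, lists and tests were chosen with earlier results of these data known. Named beside the members were, for each list, genes that passed or the 2 with the largest difference at a mean of at least 1 CPM, the nearest gene on either side, and the 8 genes most like the members' mean course. Exceptions are stated, and 1 gene that this rule names is not reported here. A planned comparison of protein sequences was not run, and the promoters of Aoc3 and Ebf2 were not analysed here.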

Additional observations from a re-analysis of the deposited data

How the results depend on the processing

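The choice of the 9 genes fixes the sign of their difference between genotypes, so its sign under the alternatives is no sign of stability. Its size ranged most for Egfl6, from 1.49 to 2.25 when a day's pair was left out and from 1.59 to 2.31 under the others. The number of genes called between genotypes, 2 in edgeR, was 9 with RLE factors, 0 with total counts only (2042 at an unadjusted p under 0.05), 9 with no filter, 1 with a minimum count of 50, 8 with robust dispersion, 607 in DESeq2, 40 in limma-voom, and between 0 and 863 when a day's pair was left out. The cause was not tested.

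Of the 378 alternatives for the day changes of the 9 genes, 350 kept direction and side of the threshold, 19 lost and 5 gained a call, and 4 changed sign, none of them past the threshold. These were Npnt at day 7 against day 3 (0.15 with total counts only, 0.08 and 0.15 without the Ezh2-deficient library of day 3 or day 7, and -0.22 to 0.15 over the libraries left out) and Crabp1 at day 14 against day 3 (-0.10 without the Ezh2-deficient library of day 3, and up to 0.85 without another). Leaving out a library gave between 1860 and 5699 calls over all genes at day 7 against day 3 (5881 with all libraries) and between 4912 and 6605 at day 14 against day 3 (7414). It gave between 45 and 2525 at day 14 against day 7 (922, and 1944 in DESeq2). The members called there ranged from 1 to 6 (5 with all libraries). Fewer libraries leave 1 residual degree of freedom. Among other genes, Ggt5 lay between -0.19 and 0.69 when a day was left out, below 0 without day 7, and Chmp1a went to 0.0123 without day 7 and 0.00357 without day 14, above 0 both times.

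With 2-fold replaced by 1.5-fold, 9 of 9 genes were past it on each day. Total-count CPM and RPKM gave 8. Promoter medians over the 200 bases before the start were 0.588 for the CpG ratio and 66.8% GC. Day as a covariate sets the libraries of a day against each other in the genotype fit. With 1 library per genotype and day and no replicate numbers in the labels, no further pairing was possible. Depth limits the values of Egfl6, Dpep1, Cadm3, Col13a1 and Crabp1 at day 3, where a wildtype library held at most 23 fragments. It also limits Cadm3 (17 fragments) and Crabp1 (19) in the wildtype library of day 14, and Col13a1 (25) in that of day 7. The counting interval was 2.14 to 6.31 for Crabp1 at day 14 and 2.51 to 6.30 for Col13a1 at day 7.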

Other observations

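Besides the 8 members, 15 genes were at least 2-fold higher in the Ezh2-deficient library on all 3 days by the same rule, listed here after their values were seen and with no test. They include genes of fat metabolism (Gpd1, Thrsp and Lgals12), bone matrix (Bglap and Ibsp), contractile cells (Cnn1), a homeobox factor of limb and face (Alx4), a zinc finger factor (Klf14) and a chemokine (Cxcl9). The others were A930038C07Rik, Gm8615, Insc, Nell2, Nrgn and Ptprz1. Gpd1, which makes glycerol phosphate for lipid synthesis, had 21.2, 150 and 39.2 CPM at days 3, 7 and 14 in Ezh2-deficient libraries, against 3.79, 56.1 and 15.3 CPM in wildtype libraries. Like Aoc3 and Ebf2 it was highest at day 7 in both genotypes. Ptprz1, a receptor-type phosphatase, had 3.98, 4.91 and 409 CPM in Ezh2-deficient libraries, against 0.425, 0.170 and 59.2 CPM in wildtype libraries. Insc, which orients dividing cells, had 1.61, 2.75 and 64.9 CPM in Ezh2-deficient libraries, against 0.152, 0.369 and 23.1 CPM in wildtype libraries. Like Col13a1, both were low at days 3 and 7 and far higher at day 14 in both genotypes.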
